A study of Mus musculus with 4 samples.

Results

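The joins described here connect a DNA break in Sμ, the switch region that precedes the exons of the IgM heavy chain, to a second place in Sμ on the plus strand of the mouse reference, the orientation that an inversion within 1 chromosome would give. They were chosen as all plus-strand junction coordinates in the deposited Sμ position lists of 4 libraries, and 1098 of 18731 junctions met that rule. The CtIP_AA library held 143 of them, CtIP_KO 126, XRCC4_KO 295 and Wildtype 534. They are called Sμ+ joins below, and the minus-strand joins within Sμ, which have the deletion orientation and numbered 3764, are called Sμ- joins. Within Sμ here means inside those deposited lists, in which Sμ+ joins ran from chr12:114658176 to chr12:114668027. That range is wider than the Sμ repeat and takes in sequence on both sides of it.

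The libraries were made by linear-amplification sequencing of joins from purified splenic B cells without surface CD43, taken from mice with preassembled IgH and IgK loci and cultured for 4 days with anti-CD40 (1 ng/mL) and IL-4 (20 ng/mL). The labels give the strain as BL6 and the growth protocol names 129Sv. The source of the Sμ allele is therefore unsettled, and every coordinate is that of the mm9 reference, from which the allele may differ. By label, CtIP_AA is CtIP T855A/T855A, with no Cre and no XRCC4 allele named. CtIP_KO is CD21Cre+ CtIP C/- XRCC4 +/C, XRCC4_KO is CD21Cre+ CtIP +/- XRCC4 C/-, and Wildtype is CD21Cre+ CtIP +/C XRCC4 +/C. All 3 Cre libraries therefore carry a conditional or null allele of both genes in at least 1 copy, and CD21Cre acts in mature B cells. Each genotype is 1 library without replicates. Every p below compares libraries, or orientations within a library, by junction counts, and covers counting error only. Total junctions were 3220 in CtIP_AA, 2555 in CtIP_KO, 3521 in XRCC4_KO and 9435 in Wildtype.

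Switch recombination joins Sμ to a downstream switch region after the deaminase AID has led to breaks in both, and AID acts most on AGCT motifs, in which switch regions are rich. Breaks within Sμ are also joined to each other, as short deletions or as inversions, and a plus-strand join can also come from a link between the 2 copies of the chromosome. CtIP starts the trimming of broken ends into single strands, the T855A change removes a phosphorylation site that trimming depends on, and XRCC4 holds DNA ligase IV in the complex that seals ends in classical end joining. When that pathway is missing, ends are joined by other routes that often use microhomology, short runs of bases shared by both ends.

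The primers and the bait set the frame for every position below. On mm9, IgH runs toward lower coordinates of chromosome 12, so lower means downstream. The biotinylated primer lies at chr12:114664982-114665001 and the nested primer at chr12:114664889-114664909, both on the minus strand. The bait reads from the nested primer toward an AflII site at chr12:114664801-114664806, whose cutting removes unrearranged Sμ. The 3 sequences are shown because many Sμ+ joins near the primers read the same bases back. The bait is printed on the minus strand up to and including the AflII site (its final 6 bases, in capitals), and the first block of capitals is a perfect 20-base inverted repeat, a stretch equal to its own reverse complement, at chr12:114664835-114664854.
biotinylated primer: cagacctgggaatgtatggt
nested primer: cacacaaagactctggacctc
bait: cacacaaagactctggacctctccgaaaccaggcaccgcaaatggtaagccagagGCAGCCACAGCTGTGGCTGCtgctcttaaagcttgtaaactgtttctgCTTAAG

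Sμ+ joins made up 16.9% of the joins within Sμ in CtIP_AA (95% Wilson interval 14.5 to 19.5), 22.4% in CtIP_KO (19.2 to 26.0), 26.2% in XRCC4_KO (23.8 to 28.9) and 22.9% in Wildtype (21.3 to 24.7). CtIP_AA was the library with the lowest share. Its odds of the inversion orientation were below those of Wildtype (odds ratio 0.682, 95% interval 0.552 to 0.839, Fisher's exact adjusted p = 0.000971) and below those of CtIP_KO (odds ratio 0.702, exact adjusted p = 0.026). The difference from Wildtype was 0.656 over distinct positions (exact adjusted p = 0.00121). With positions found in another library left out it was 0.936 (exact adjusted p = 0.849), but that setting removes unequal shares of the 2 orientations, 33.1% of Sμ+ and 66.7% of Sμ- positions in CtIP_AA against 22.1% and 45.9% in Wildtype. The difference from CtIP_KO did not pass over distinct positions (odds ratio 0.835, exact adjusted p = 0.294). Against Wildtype, the odds were 0.971 times as high in CtIP_KO (0.772 to 1.22; exact adjusted p = 0.823) and 1.20 times as high in XRCC4_KO (1.01 to 1.41; exact adjusted p = 0.056). The odds ratio of XRCC4_KO over Wildtype moved with the setting. It was 1.25 inside the central 95% of Wildtype Sμ- positions (exact adjusted p = 0.0177), 1.08 over distinct positions (exact adjusted p = 0.416) and 1.01 without junctions within 500 bp of the nested primer (exact adjusted p = 0.922).

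As a share of all junctions, Sμ+ joins were 4.44% in CtIP_AA, 4.93% in CtIP_KO, 8.38% in XRCC4_KO and 5.66% in Wildtype. XRCC4_KO was higher than Wildtype (odds ratio 1.52, 1.31 to 1.77, exact adjusted p = 2.32e-07) and higher than CtIP_KO (odds ratio 1.76, exact adjusted p = 3.03e-07). CtIP_AA was lower than Wildtype (odds ratio 0.775, 0.637 to 0.938, exact adjusted p = 0.0124), while for CtIP_KO the interval of 0.703 to 1.06 around 0.865 held 1 (exact adjusted p = 0.196). Joins to other switch regions enter this denominator, so it moves with them as well.

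Along Sμ, most Sμ+ joins fell downstream of the bait, over the same 2500 bp as the Sμ- joins. Their median distance downstream of the 5′ end of the nested primer was 1331 bp in CtIP_AA (95% interval 1027 to 1576), 1281.5 bp in CtIP_KO (941 to 1447), 913 bp in XRCC4_KO (637 to 1161) and 1550.5 bp in Wildtype (1402 to 1591). The medians of Sμ- joins lay between 1520 and 1570 bp in all 4 libraries. These distances are signed, so a join upstream of the nested primer counts as less far downstream, however far from the primer it lies. In XRCC4_KO 69 of 295 Sμ+ and 10 of 829 Sμ- joins lay upstream of it. The Sμ+ joins of XRCC4_KO lay less far downstream than its Sμ- joins: 30.8% of Sμ+ and 56.8% of Sμ- joins were beyond the pooled median (odds ratio 0.339, 0.253 to 0.454, exact adjusted p = 7.1e-14). They also lay less far downstream than the Sμ+ joins of Wildtype (39.0% against 56.0% beyond the pooled median, odds ratio 0.503, exact adjusted p = 9.74e-06). Downstream of the AflII site alone the odds ratios of XRCC4_KO were 0.624 against its own Sμ- joins (exact adjusted p = 0.00539) and 0.555 against Wildtype (exact adjusted p = 0.00152). The Sμ+ joins of CtIP_KO also lay less far downstream than its Sμ- joins (odds ratio 0.537, exact adjusted p = 0.00651) and than those of Wildtype (0.555, exact adjusted p = 0.00598). Both CtIP_KO differences were lost when junctions from the AflII site to the biotinylated primer were left out (odds ratios 0.724 and 0.686, exact adjusted p = 0.182 and 0.139), and over distinct positions the one against Wildtype was 0.954. CtIP_AA gave 0.751 and 0.742 in the same 2 comparisons (exact adjusted p = 0.189 and 0.132), and Wildtype gave 1.13 for its own orientations (exact adjusted p = 0.237).

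The 500 bp interval with the most Sμ+ joins also differed. In CtIP_AA it was 1500 to 2000 bp downstream (39 of 143 joins, 27.3%), and in CtIP_KO the same interval (26 of 126, 20.6%), followed by 2000 to 2500 bp with 25. In XRCC4_KO it was the first 500 bp after the primer (52 of 295, 17.6%). In Wildtype it was 2000 to 2500 bp (145 of 534, 27.2%), whereas the Sμ- joins of each library peaked at 1500 to 2000 bp (34.2% in Wildtype). Downstream of the AflII site the odds of lying beyond the pooled median were 1.43 times as high for Wildtype Sμ+ joins as for Sμ- joins (exact adjusted p = 0.00308). Along all of Sμ the direction turned with repeats, from the 1.13 above to 0.860 over distinct positions, and neither passed.

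**Figure D1:**
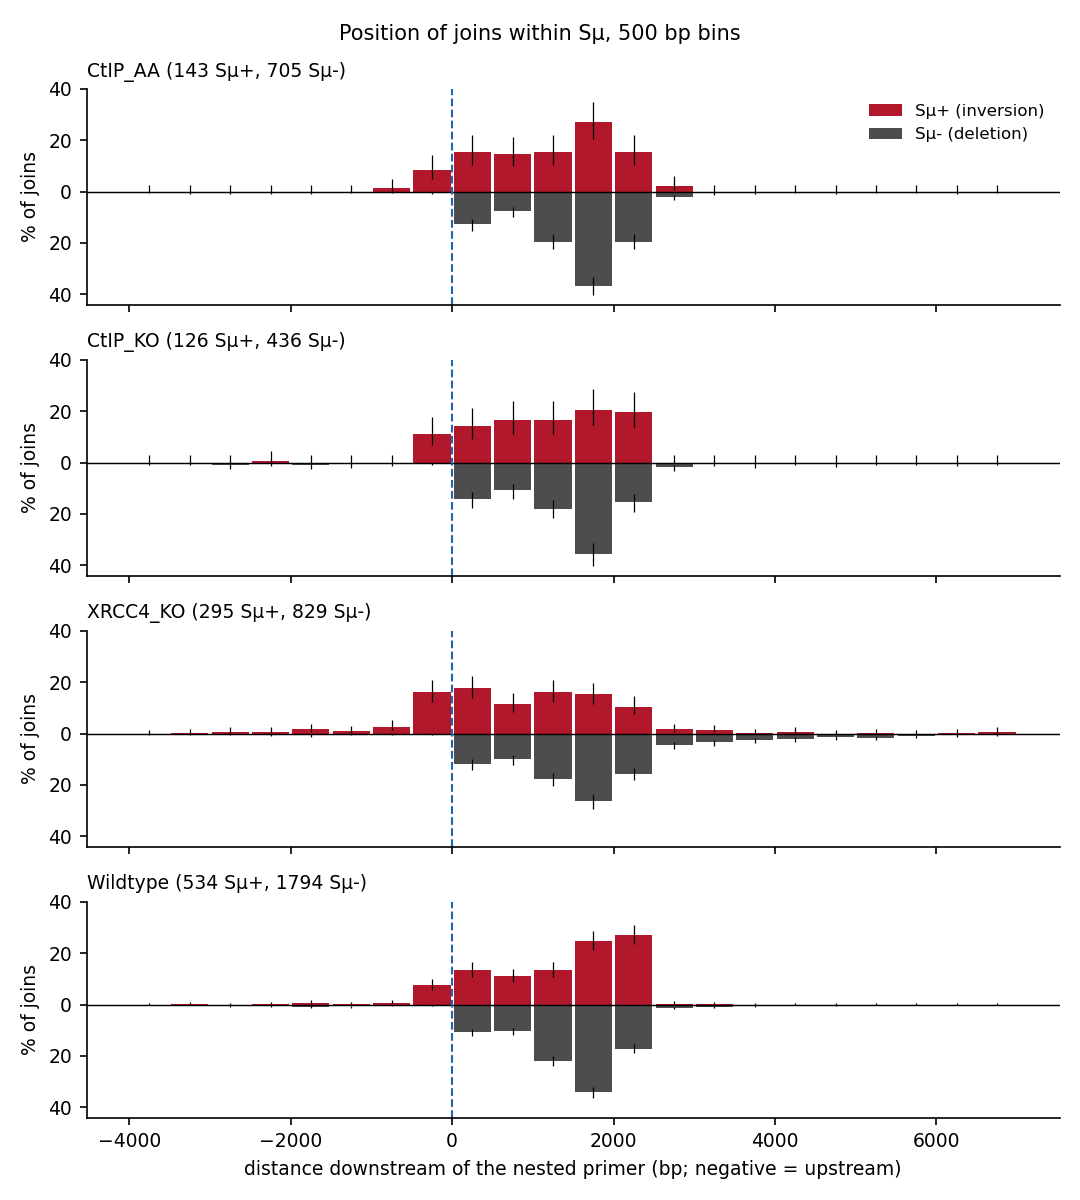
Share of Sμ+ joins (upward bars) and Sμ- joins (downward bars) per 500 bp of distance from the 5′ end of the nested primer, with 95% Wilson intervals, for each library. The Sμ+ joins reach upstream of the primer (dashed line) in all 4 libraries, most in XRCC4_KO, where the first 500 bp downstream hold 17.6% of them, and the fullest interval of Wildtype is 2000 to 2500 bp.

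The extremes of the Sμ+ joins were chr12:114662232 and chr12:114665773 in CtIP_AA, chr12:114662475 and chr12:114667274 in CtIP_KO, chr12:114658176 and chr12:114668024 in XRCC4_KO, and chr12:114661807 and chr12:114668027 in Wildtype. The central 95% of Wildtype Sμ- joins was used as a border for far joins. Downstream of it lay 2 Sμ+ joins of CtIP_AA, 0 of 126 of CtIP_KO, which allows a share of up to 2.38%, 15 of 295 of XRCC4_KO (5.08%) and 3 of 534 of Wildtype (0.562%). XRCC4_KO exceeded Wildtype there (odds ratio 9.46, 2.64 to 51.4, exact adjusted p = 0.000261). Sμ- joins went past the same border more often than Sμ+ joins in XRCC4_KO (16.0%; odds ratio of Sμ+ over Sμ- 0.281, exact adjusted p = 5.19e-06) and in Wildtype (2.51%; odds ratio 0.220, exact adjusted p = 0.00827). The Wildtype value is no independent test, because the border was set on the same Sμ- joins, and it did not pass with the border 1 kb further out (exact adjusted p = 0.192). Upstream of the border lay 5.08% of XRCC4_KO and 1.31% of Wildtype Sμ+ joins (odds ratio 4.03, exact adjusted p = 0.00827), a difference that did not pass with the border 1 kb further out (odds ratio 4.29, exact adjusted p = 0.148).

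Upstream of the biotinylated primer, the side away from the bait, Sμ+ joins were relatively frequent in every library. They made up 6.99% of Sμ+ joins in CtIP_AA (10 joins), 7.94% in CtIP_KO (10), 21.0% in XRCC4_KO (62, interval 16.8 to 26.0) and 7.30% in Wildtype (39, interval 5.39 to 9.83). Among Sμ- joins the shares were 0.993%, 2.98%, 1.21% and 2.73% in the same order of libraries. On this side a Sμ- prey reads toward the primers and the AflII site, and a Sμ+ prey reads away from them. Of these Sμ- joins, 2, 0, 1 and 0 lay within 400 bp of the nested primer. The Sμ+ counts within 400 bp were 8, 8, 41 and 27. Whether cutting at the AflII site lowered the Sμ- counts here was not tested. A Sμ- join on this side cannot be a deletion, because its prey lies upstream of the bait. The direction of the orientation difference here was therefore partly set in advance in every library. For Sμ+ over Sμ-, the odds ratio was 7.47 in CtIP_AA (exact adjusted p = 0.000217) and 21.7 in XRCC4_KO (10.8 to 48.3, exact adjusted p = 3.47e-27). It was 2.80 in CtIP_KO (exact adjusted p = 0.0316) and likewise 2.80 in Wildtype (exact adjusted p = 2.31e-05). XRCC4_KO was above Wildtype among the Sμ+ joins themselves (odds ratio 3.37, 2.15 to 5.33, exact adjusted p = 1.9e-07). The 2 CtIP libraries gave 0.954 (0.414 to 2.01) and 1.09 (0.473 to 2.31) against Wildtype (exact adjusted p = 1 and 0.95).

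The orientation effect itself was larger in XRCC4_KO than in Wildtype. The ratio of the 2 odds ratios was 7.77 (95% interval 3.46 to 17.4, Zelen's exact test of equal odds ratios, adjusted p = 1.1e-06 over 12 such tests). It was 6.47 over distinct positions (exact adjusted p = 3.49e-05). The upstream joins of XRCC4_KO were spread over 56 positions and were not a few repeated ones. They lay 99 to 3115 bp upstream of the nested primer with a median of 304 bp, and 41 of 62 were within 400 bp. In Wildtype the range was 107 to 3118 bp with a median of 306 bp, and 27 of 39 were within 400 bp. Blunt joins among them numbered 4 of 62 in XRCC4_KO and 4 of 39 in Wildtype. Whether these joins lie on 1 chromosome or link its 2 copies cannot be told apart from these data.

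**Figure D2:**
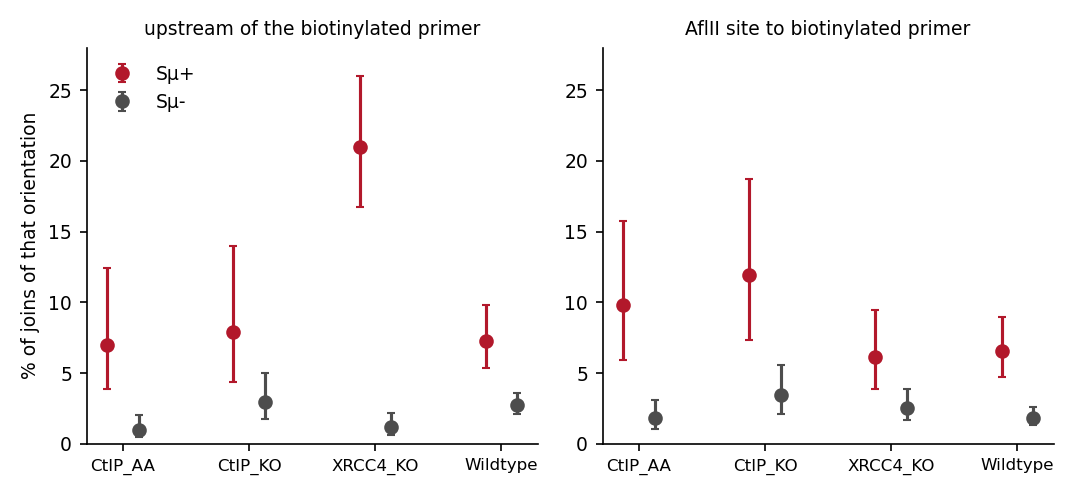
Share of Sμ+ and Sμ- joins upstream of the biotinylated primer (left) and from the AflII site to that primer (right) in each library, with 95% Wilson intervals. Upstream, XRCC4_KO stands at 21.0% of Sμ+ joins, and the other 3 libraries are between 6.99% and 7.94%.

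Between the AflII site and the biotinylated primer, the prey end lies inside the amplified bait or the primers. This zone held 14 Sμ+ joins of CtIP_AA (9.79%), 15 of CtIP_KO (11.9%), 18 of XRCC4_KO (6.10%) and 35 of Wildtype (6.55%), against 1.84%, 3.44%, 2.53% and 1.84% of the Sμ- joins. Sμ+ exceeded Sμ- in all 4 libraries, by odds ratios of 5.76 in CtIP_AA, 3.78 in CtIP_KO, 2.50 in XRCC4_KO and 3.74 in Wildtype (exact adjusted p of 6.4e-05, 0.00197, 0.0145 and 9.2e-07). Once repeats of a position were dropped, the XRCC4_KO difference did not pass (odds ratio 1.52, exact adjusted p = 0.42). Between the primers lay 4, 5, 7 and 11 of the Sμ+ joins in CtIP_AA, CtIP_KO, XRCC4_KO and Wildtype. The Sμ- joins there numbered 0, 0, 0 and 2. A Sμ- join there cannot be a deletion, because its prey lies upstream of the bait. The direction of the zone difference was therefore partly set in advance, and the bait part alone was not tested. None of the 82 Sμ+ joins of this zone was blunt, which allows a share of up to 3.66%, while 17 of 82 Sμ- joins there were.

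The same few positions of this zone recurred in all libraries. The junction at chr12:114664836, inside the inverted repeat, was found 3 times in CtIP_AA, 3 in CtIP_KO, 4 in XRCC4_KO and 5 in Wildtype. Its neighbour chr12:114664837 was found 2, 2, 1 and 3 times in that order. In all, 8 positions of Sμ+ joins occurred in all 4 libraries, and 6 of them were in this zone. The other two were chr12:114664500 and chr12:114664744. Between the primers, chr12:114664951 was found 3 times in CtIP_AA, 2 in CtIP_KO, 3 in XRCC4_KO and 5 in Wildtype, and chr12:114664928 was found 1, 1, 2 and 2 times.

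Reads of these joins could be inspected in CtIP_AA and CtIP_KO, whose Sμ joins are listed read by read. In 9 of the 14 zone joins of CtIP_AA and 8 of the 15 of CtIP_KO, the prey aligned over the bases of its own bait, on the other strand. In 4 of 4 joins between the primers in CtIP_AA, and 3 of 5 in CtIP_KO, the prey ended exactly in the complement of the biotinylated primer, at its 5′ end. Sμ- joins cannot show either feature, since their prey reads the strand of the bait. The 3 reads below show these kinds of join, with the bait in lower case and the prey in capitals. The first, from CtIP_KO, has a bait that ends short of the inverted repeat, and a prey that begins inside the repeat and runs back over the last bases of the bait. The second, from CtIP_AA, has 7 bp of microhomology between the inverted repeat and sequence above the nested primer, and ends in the primer complement. The third, from CtIP_KO, has 13 bp of microhomology that includes the AflII recognition letters CTTAAG on both sides, because a second such site lies at chr12:114664506-114664511, 398 bp downstream of the nested primer.
join at chr12:114664836: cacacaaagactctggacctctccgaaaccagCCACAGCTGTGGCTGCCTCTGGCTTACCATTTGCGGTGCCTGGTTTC
join at chr12:114664951: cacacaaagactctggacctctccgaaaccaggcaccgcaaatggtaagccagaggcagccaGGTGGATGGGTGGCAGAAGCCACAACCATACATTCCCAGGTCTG
join at chr12:114664500: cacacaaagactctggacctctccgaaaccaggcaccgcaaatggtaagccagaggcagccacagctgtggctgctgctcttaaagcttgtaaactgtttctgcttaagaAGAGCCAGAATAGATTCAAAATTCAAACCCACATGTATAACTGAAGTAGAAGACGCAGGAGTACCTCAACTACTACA

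The prey coordinate of the third read was found 1 time in CtIP_AA, 2 times in CtIP_KO, 1 time in XRCC4_KO and 2 times in Wildtype, and in XRCC4_KO and Wildtype the bait ends of these joins were not seen. Whether the third join and the joins that read the bait back formed in cells or during amplification was not tested. Identical pairs of bait end and prey end were shared by CtIP_AA and CtIP_KO for 8 Sμ+ joins, 6.11% of the 131 pairs of CtIP_AA and 7.08% of the 113 of CtIP_KO, and 6 of the 8 were in this zone. For Sμ- joins 12 pairs were shared, 1.85% of the 648 of CtIP_AA and 2.92% of the 411 of CtIP_KO. In the same libraries the bait itself ran past the AflII site in 12 of 138 and 8 of 124 Sμ+ joins, against 16 of 690 and 5 of 426 Sμ- joins. The median bait was 61.5 and 62 bp in Sμ+ joins and 65 and 60 bp in Sμ- joins, and no median test of bait length passed, over all listed joins in these 2 libraries or over blunt joins in all 4 (exact adjusted p = 0.581 or more).

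Prey ends close to the bait end were few. In CtIP_AA 12 of 143 Sμ+ joins (8.39%, 4.87 to 14.1) lay within 50 bp of their own bait end, and 20 (14.0%) within 200 bp. In CtIP_KO the counts were 11 of 126 (8.73%, 4.94 to 15.0) and 22 (17.5%). Among Sμ- joins the shares within 50 bp were 3.58% and 4.61%. The median distance between bait end and prey end of a Sμ+ join was 1244 bp in CtIP_AA and 1238 bp in CtIP_KO.

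The core of Sμ is a tandem repeat. The deposited prey context of each listed join gives 20 reference bases, in lower case where the reference is soft-masked as repeat. These contexts placed the repeat at chr12:114661638-114664000, 909 to 3271 bp downstream of the nested primer, with 97.5% of the bases read there masked. Over all joins of an orientation, Sμ+ joins ended in this stretch less often than Sμ- joins in each library. The shares were 62.2% of Sμ+ and 80.3% of Sμ- joins in CtIP_AA (odds ratio 0.405, exact adjusted p = 2.16e-05). The CtIP_KO shares were 61.9% and 73.6% (0.583, exact adjusted p = 0.0196). They were 47.1% and 68.6% in XRCC4_KO (0.407, exact adjusted p = 8.45e-10), and 69.1% and 77.6% in Wildtype (0.646, exact adjusted p = 0.000159). XRCC4_KO was below Wildtype among Sμ+ joins (odds ratio 0.399, 0.294 to 0.540, exact adjusted p = 2.86e-09). Over distinct positions, those of CtIP_KO and Wildtype no longer passed (odds ratios 0.706 and 0.784, exact adjusted p = 0.213 and 0.0972). The CtIP_KO difference also failed without the zone from the AflII site to the biotinylated primer (odds ratio 0.737, exact adjusted p = 0.305). Among joins downstream of the AflII site only, the orientations were closer in every library. The stretch held 89 of 119 Sμ+ and 566 of 685 Sμ- joins in CtIP_AA, and 78 of 101 and 321 of 408 in CtIP_KO. It held 139 of 215 and 569 of 798 in XRCC4_KO, and 369 of 460 and 1392 of 1712 in Wildtype. These downstream counts were not tested.

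An AGCT that spans the prey break, so that the break falls inside the 4 letters (the motif is its own reverse complement), was found in 21.0% of Sμ+ and 32.8% of Sμ- joins of CtIP_AA (odds ratio 0.545, exact adjusted p = 0.0133). It was found in 15.1% and 25.5% in CtIP_KO (0.520, exact adjusted p = 0.027) and 18.5% and 30.3% in Wildtype (0.523, 0.404 to 0.672, exact adjusted p = 4.96e-07). For Wildtype the letters were known for 507 of 534 Sμ+ joins. For XRCC4_KO they were known for only 79.7%, so the comparison is void there. Over distinct positions the differences of CtIP_AA and CtIP_KO did not pass (odds ratios 0.597 and 0.630, exact adjusted p = 0.0902 and 0.193). Inside the repeat stretch alone the Wildtype difference was still present (24.7% of Sμ+ and 37.1% of Sμ- joins, odds ratio 0.557), whereas those of CtIP_AA and CtIP_KO did not pass (exact adjusted p = 0.215 and 0.0519). A match of these letters is a description of the break and says nothing of how it arose.

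Some positions held several Sμ+ joins of 1 library. Wildtype had 25 positions with 3 or more joins, XRCC4_KO 5, CtIP_KO 4 and CtIP_AA 3. These counts were not adjusted for the number of Sμ+ joins, which was 534, 295, 126 and 143 in that order. The most repeated were chr12:114662709 with 8 and chr12:114662705 and chr12:114662603 with 7 Wildtype joins each, none of them found in the mutant libraries. In XRCC4_KO chr12:114662843 held 4 joins, in CtIP_KO chr12:114662938 held 3 and in CtIP_AA chr12:114663053 held 3. The reference around 5 of these and of chr12:114662618, which held 3 joins of CtIP_KO and 5 of Wildtype, is shown on the plus strand because it tells how like each other they are. The 10 bases on the far side of the prey break are in lower case, and the 10 with which the prey begins are in capitals. Whether the lower-case bases were lost or lie in another join is not seen.
chr12:114662603: cagctcacccCAGCTCAGCT
chr12:114662618: cagctcacccCAGCTCAGCT
chr12:114662709: agcccagctcAGCCCAGCTC
chr12:114662843: cagctcagctCAGCTCACCC
chr12:114662938: cagctcagccCAGCTCACCC
chr12:114663053: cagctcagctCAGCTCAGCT

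Of these 6 coordinates, 2 have the same 20 letters. Of Sμ+ joins with known letters, 45.5% in CtIP_AA, 40.5% in CtIP_KO and 56.0% in Wildtype had a 20-base context that other listed positions share. These shares cover joins inside and outside the repeat, and compare junction positions only. A single coordinate inside the repeat is therefore uncertain to an extent that they do not measure. Reads were longer than this context, with a median prey of 85 bp in CtIP_AA and 69 bp in CtIP_KO. Outside the repeat, XRCC4_KO held 3 joins each at chr12:114664099 and chr12:114664537. On the whole, 42 of 127 distinct Sμ+ positions of CtIP_AA (33.1%), 42 of 108 of CtIP_KO (38.9%), 69 of 251 of XRCC4_KO (27.5%) and 88 of 398 of Wildtype (22.1%) were found in another library. For Sμ- positions the shares were 66.7%, 70.7%, 52.8% and 45.9%.

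Join structure was compared next, using the deposited bins of microhomology and inserted bases. Microhomology of any length was present in 42.7% of Sμ+ joins in CtIP_AA, 48.4% in CtIP_KO, 63.7% in XRCC4_KO and 51.3% in Wildtype. Blunt joins made up 22.4%, 16.7%, 8.81% and 15.4% in the same order, and joins with insertions 35.0%, 34.9%, 27.5% and 33.3%. XRCC4_KO had more microhomology than Wildtype (odds ratio 1.67, 1.23 to 2.26, exact adjusted p = 0.00896) and than CtIP_KO (1.87, exact adjusted p = 0.0352), and fewer blunt joins than Wildtype (0.533, 0.321 to 0.862, exact adjusted p = 0.0352). CtIP_AA gave odds ratios of 0.706 (0.477 to 1.04) for microhomology and 1.59 (0.970 to 2.56) for blunt joins against Wildtype (exact adjusted p = 0.183 and 0.175), and CtIP_KO gave 0.891 and 1.10 (exact adjusted p = 0.82 for both).

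By these 3 classes Sμ+ and Sμ- joins of the same library were not separated by any of 12 tests. The nearest were in Wildtype, with microhomology in 51.3% of Sμ+ and 44.8% of Sμ- joins (odds ratio 1.30, 1.07 to 1.59) and blunt ends in 15.4% and 20.8% (0.689, 0.524 to 0.899; exact adjusted p = 0.0525 for both). With joins of 1 bp of overlap or insertion counted as blunt, both Wildtype differences passed (odds ratios 1.77 and 0.583, exact adjusted p = 5.01e-07 and 5.31e-07). The mutant effect also did not differ detectably between orientations. In XRCC4_KO over Wildtype the ratio of the Sμ+ to the Sμ- odds ratio was 0.754 (0.538 to 1.06) for microhomology and 1.12 (0.664 to 1.90) for blunt joins, and none of 9 such Wald tests of log odds ratios passed after adjustment.

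**Figure D3:**
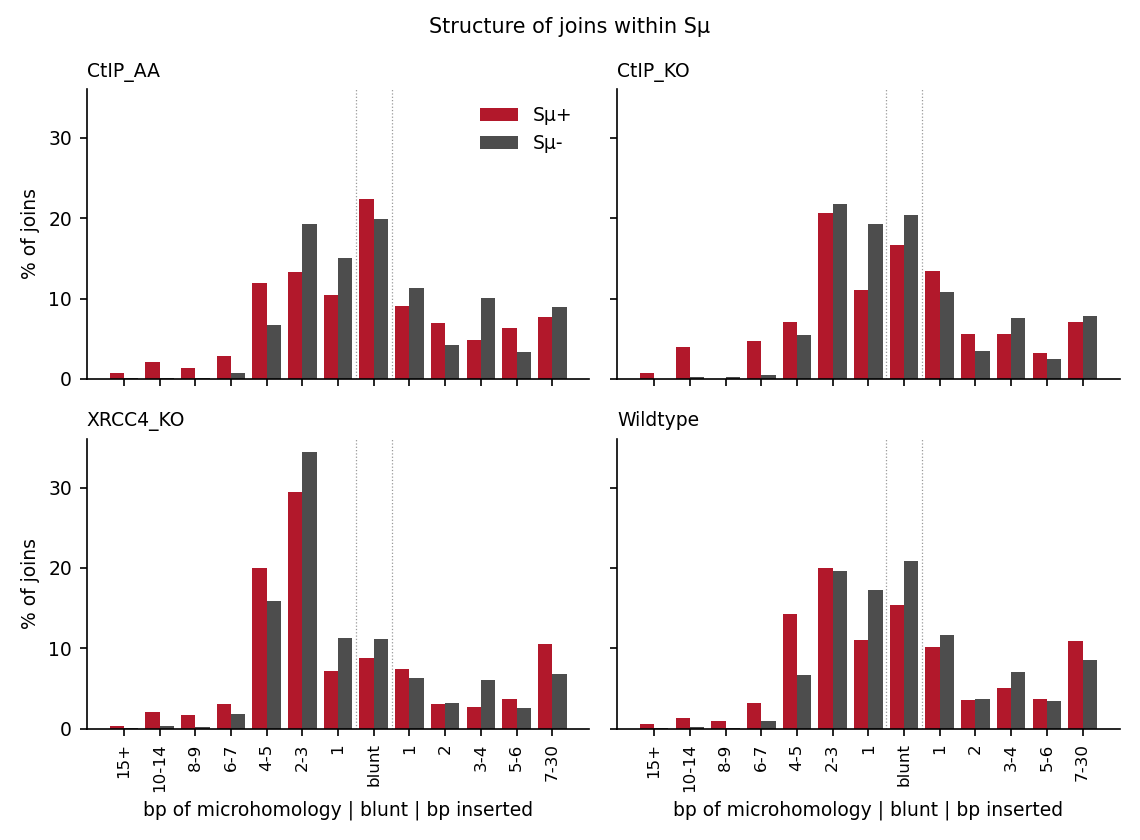
Percentage of Sμ+ and Sμ- joins in each bin of microhomology length, blunt ends and inserted bases, for each library. Microhomology of 4 to 5 bp is the bin where Sμ+ joins most exceed Sμ- joins in CtIP_AA and Wildtype (11.9% against 6.67%, and 14.2% against 6.63%), while 1 bp microhomology is lower among Sμ+ joins in all 4 libraries.

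The length of the microhomology separated the orientations where its presence did not. Among joins with 1 to 15 bp of microhomology, 4 or more bp were found in 26 of 60 Sμ+ and 54 of 296 Sμ- joins of CtIP_AA (43.3% and 18.2%, odds ratio 3.41, 1.81 to 6.41, exact adjusted p = 0.000236). In CtIP_KO the counts were 20 of 60 and 28 of 207 (33.3% and 13.5%, odds ratio 3.18, 1.54 to 6.54, exact adjusted p = 0.00168). In XRCC4_KO they were 79 of 187 and 152 of 531 (42.2% and 28.6%, odds ratio 1.82, 1.27 to 2.61, exact adjusted p = 0.00168), and in Wildtype 105 of 271 and 142 of 802 (38.7% and 17.7%, odds ratio 2.94, 2.14 to 4.03, exact adjusted p = 5.07e-11). The Sμ+ shares of the mutant libraries were not separable from that of Wildtype (odds ratios 1.21, 0.791 and 1.16 for CtIP_AA, CtIP_KO and XRCC4_KO, exact adjusted p = 0.56 for each). XRCC4_KO did exceed Wildtype under other settings, with an odds ratio of 2.20 when microhomology of 2 or more bp was counted (exact adjusted p = 0.0134) and 1.49 with all Sμ+ joins as the denominator (exact adjusted p = 0.0323). The orientation effect was not separable between libraries either, with a ratio of 0.620 (0.391 to 0.983, Zelen's exact adjusted p = 0.138) for XRCC4_KO over Wildtype. At 2 or more bp the orientation difference of CtIP_AA and of XRCC4_KO no longer passed (odds ratios 1.67 and 1.70).

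Part of the long microhomology came from joins near the bait. Without the zone from the AflII site to the biotinylated primer, the shares were 20 of 48 Sμ+ and 52 of 287 Sμ- joins in CtIP_AA (41.7% and 18.1%, odds ratio 3.21, exact adjusted p = 0.0011) and 13 of 49 and 25 of 196 in CtIP_KO (26.5% and 12.8%, odds ratio 2.46, exact adjusted p = 0.0259). Inside the repeat stretch alone they were 10 of 25 and 43 of 224 in CtIP_AA (odds ratio 2.79, 1.05 to 7.19, exact adjusted p = 0.0709). There they were 6 of 33 and 22 of 148 in CtIP_KO (odds ratio 1.27, 0.384 to 3.65, exact adjusted p = 0.602). Between the repeat and the AflII site they were 10 of 18 Sμ+ joins with microhomology in CtIP_AA and 7 of 11 in CtIP_KO. The Sμ- counts there were 7 of 54 and 2 of 36.

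The letters of these microhomologies are given as a description, with no test. In CtIP_AA, 26 Sμ+ joins had 18 different sequences, and 4 of the 26 contained AGCT, against 22 of 54 Sμ- joins. In CtIP_KO, 20 Sμ+ joins had 16 different sequences, and 5 contained AGCT, against 15 of 28 Sμ- joins. The commonest in Sμ+ joins was CCAG with 4 joins in CtIP_AA and ctgggtc with 2 in CtIP_KO. In Sμ- joins it was GCTG with 20 joins in CtIP_AA and AGCTG with 13 in CtIP_KO. Insertion length at a cut of 2 bp did not separate orientations or libraries: inserts of 2 or more bp made up 74.0%, 61.4%, 72.8% and 69.7% of Sμ+ joins with insertions in CtIP_AA, CtIP_KO, XRCC4_KO and Wildtype (exact adjusted p = 0.766 for every comparison). At 5 or more bp, Sμ+ over Sμ- gave odds ratios of 1.39 in CtIP_AA and 0.886 in CtIP_KO. There it gave 1.79 (1.03 to 3.11) in XRCC4_KO and 1.45 (1.02 to 2.06) in Wildtype. Neither of the latter passed after adjustment (exact adjusted p = 0.121 for both).

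**Figure D4:**
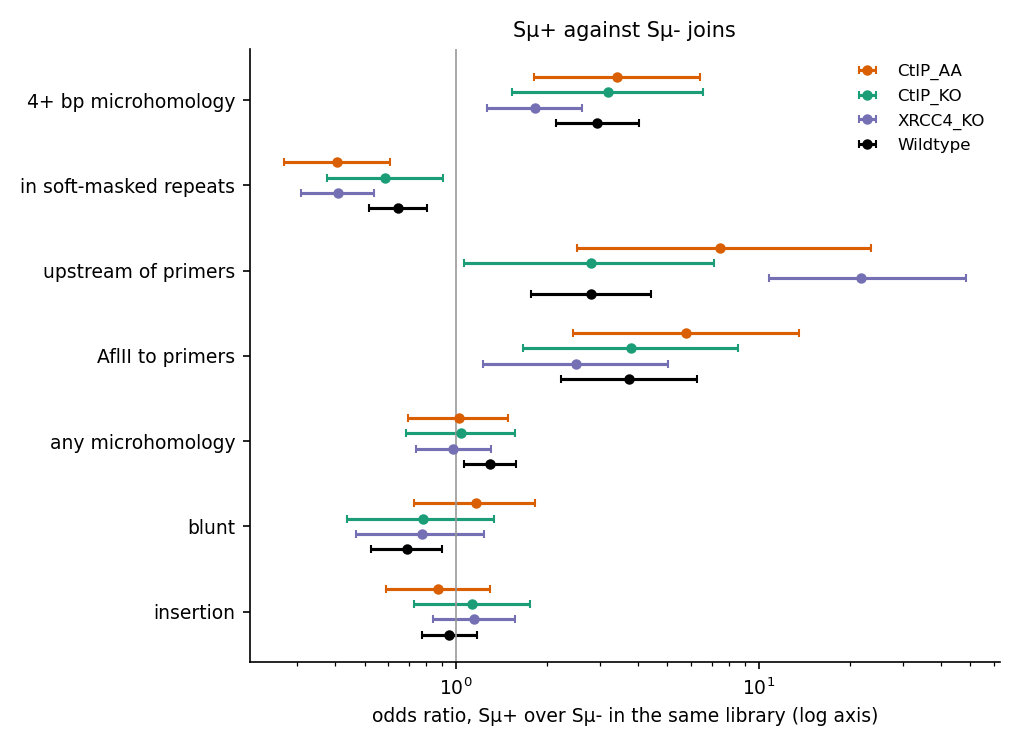
Odds ratio of Sμ+ over Sμ- joins of the same library on a log axis, with exact 95% intervals, for long microhomology, the repeat stretch, the 2 zones at the primers and the 3 structure classes. Long microhomology is above 1 and the repeat stretch below 1 in all 4 libraries, and the upstream zone reaches 21.7 in XRCC4_KO. The repeat stretch is taken over all joins of an orientation. Its shares were closer downstream of the AflII site, and over distinct positions it did not pass in CtIP_KO and Wildtype. No structure class passed after adjustment. In Wildtype, microhomology stands at 1.30 (1.07 to 1.59) and blunt joins at 0.689 (0.524 to 0.899).

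Mixing of reads between libraries was looked for with the bases read before the nested primer. The commonest such lead in Wildtype occurred in 577 of 2026 blunt reads. It was found in 0 of 138 Sμ+ reads of CtIP_AA and 1 of 124 of CtIP_KO, and in 18 of 690 and 9 of 426 Sμ- reads. Most of these reads had no bases before the primer and could not show it. Among Sμ- reads with any such bases, the lead was in 18 of 49 in CtIP_AA and 9 of 55 in CtIP_KO. Among such Sμ+ reads it was in 0 of 17 and 1 of 17. Its part in the Sμ- comparisons, the inversion share included, was not tested.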

How the data were processed

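Groups were taken from the sample titles, with 1 library per genotype. The submitters' processing notes name Bowtie2 and mm9. The calling of junctions and the removal of duplicates were not given in the sources used here, so neither was checked. The deposited summary gives junction counts per place and per bin of overlap or insertion, the position lists hold the mm9 coordinate of each prey end, and the authors' binned counts were used only as a check. Joins within Sμ listed read by read were used for CtIP_AA and CtIP_KO, and blunt joins for all 4 libraries. Emptied lines (6 of 848 and 2 of 562 in the Sμ lists) were left out of read-level values.

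Primer and bait positions were found by matching the labels' primers and the most frequent bait end. The members and all lists and cut-offs were chosen with earlier results of these data known. The positions named are those held by 3 or more Sμ+ joins of 1 library, at most 10 per library, those found in 3 or more libraries, at most 10, the extremes and medians, and the fullest 500 bp interval. Shares have 95% Wilson intervals, medians have exact order-statistic intervals, and an upper limit for a count of 0 is 3 counts. Counts were compared with two-sided Fisher's exact tests, conditional odds ratios and Benjamini-Hochberg adjustment within each kind of result (threshold 0.05). Odds ratios were compared with each other by Zelen's exact test (positions and long microhomology) or a Wald test (structure classes). Intervals cover counting error only, since PCR reads are not independent molecules. The tests were tried on simulated counts. Zones at the primers, the repeat stretch, AGCT at the break and the tests between orientation effects were added after the data were seen. The software was scipy 1.17.1, pandas 2.3.3, numpy 2.4.6 and matplotlib 3.10.9 under Python 3.11.15.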

Additional observations from a re-analysis of the deposited data

Results flagged for a closer look

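The share of joins upstream of the biotinylated primer differed between orientations more in XRCC4_KO than in Wildtype. The ratio of the 2 Sμ+ over Sμ- odds ratios was 7.77 (3.46 to 17.4, Zelen's exact test, adjusted p = 1.1e-06), from 62 of 295 Sμ+ and 10 of 829 Sμ- joins in XRCC4_KO, against 39 of 534 and 49 of 1794 in Wildtype. It was singled out because a test of the difference between the 2 libraries passed. Within each library the direction was partly set in advance, because a Sμ- join upstream of the bait cannot be a deletion. The cause of the difference between the 2 libraries was not tested, and with 1 library each, genotype and library cannot be told apart.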

How the results depend on the processing

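Of 286 values recomputed under other settings, 224 kept their direction and their side of the threshold, 26 no longer passed, 11 passed newly and 25 changed direction (called turned below). All values here are odds ratios, and the adjusted p of each was recomputed with its own setting. None of those 25 passed the test in the report or under the other setting. Where no cause is given, the cause was not tested.

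With each position counted once, the inversion share was 0.835 for CtIP_AA over CtIP_KO (no longer passing) and 1.38 for XRCC4_KO over CtIP_KO (now passing). Positions gave 0.860 for Wildtype Sμ+ over Sμ- and 1.03 for CtIP_AA over Wildtype, both turned, and 0.954 for CtIP_KO over Wildtype, no longer passing. Upstream of the biotinylated primer, CtIP_KO over Wildtype turned to 0.967, and the ratio of its orientation effect to that of Wildtype to 1.03 (1.01 with 0.5 added to every cell). Lost were the XRCC4_KO excess at the bait (1.52), the repeat stretch in CtIP_KO (0.706) and Wildtype (0.784), and AGCT in CtIP_AA (0.597) and CtIP_KO (0.630).

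Without positions found in another library, CtIP_AA over Wildtype was 0.936 and CtIP_AA over CtIP_KO 0.751, neither passing. There CtIP_KO over Wildtype turned to 1.25 and XRCC4_KO over CtIP_KO to 0.998. Without junctions within 500 bp of the primer, CtIP_AA over CtIP_KO was 0.708 and no longer passed. XRCC4_KO over Wildtype passed inside the central 95% (1.25) and without the zone from the AflII site to the biotinylated primer (1.21).

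Without that zone, positions of CtIP_KO were 0.724 (own Sμ-) and 0.686 (Wildtype), no longer passing. Microhomology turned to 0.819 in CtIP_AA and 0.899 in CtIP_KO, and the upstream far joins of CtIP_AA to 1.07. The repeat stretch of CtIP_KO was 0.737, not passing. Downstream of the AflII site, positions of CtIP_KO were 0.845 and 0.664, not passing, and those of Wildtype 1.43, passing. At the 75th percentile CtIP_KO gave 0.865 and 0.656, not passing, and Wildtype 1.39 and CtIP_AA over Wildtype 0.574, passing.

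With 1 bp joins as blunt, Sμ+ over Sμ- turned for blunt joins in CtIP_AA (0.841), microhomology in XRCC4_KO (1.16) and insertions in Wildtype (1.02). Wildtype microhomology (1.77) and blunt joins (0.583) passed, as did blunt joins of XRCC4_KO over CtIP_KO (0.435), while insertions of CtIP_KO over Wildtype turned (0.902). Inside the repeat stretch, microhomology turned in CtIP_AA (0.582) and CtIP_KO (0.848), insertions in CtIP_AA (1.11) and blunt joins in CtIP_KO (1.21). Long microhomology (2.79 and 1.27) and AGCT (0.681 and 0.489) of CtIP_AA and CtIP_KO did not pass there, where fewer joins were tested.

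Microhomology of 2 or more bp gave 1.67 in CtIP_AA and 1.70 in XRCC4_KO, not passing. Over Wildtype it gave 0.835 for CtIP_AA, turned, and 2.20 for XRCC4_KO, passing. At 6 or more bp CtIP_KO (1.87) and XRCC4_KO (0.999) over Wildtype turned, and over all joins CtIP_AA turned (0.908) and XRCC4_KO passed (1.49). Insertions of 5 or more bp turned in XRCC4_KO (1.79) and for CtIP_AA over Wildtype (0.855). With the far borders 1 kb further out, Wildtype downstream (0), XRCC4_KO upstream (3.33) and XRCC4_KO over Wildtype upstream (4.29) did not pass, and CtIP_KO over Wildtype turned (1.42). Some downstream comparisons there gave no value, because no Wildtype Sμ+ join remained.

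No paired analysis was possible because each genotype is 1 library. The settings that leave out zones, keep only the repeat stretch or add 0.5, and every recount of zones, the repeat stretch, AGCT and orientation effects, were chosen after seeing the data. The exact intervals cover junction counting only. The CtIP libraries hold 143 and 126 Sμ+ joins, and differences inside their printed intervals were not detectable at this depth.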
